A study of Mus musculus with 20 samples.

Results

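Genes that write or erase the histone marks of the Polycomb system were followed in mouse embryonic fibroblasts (MEFs) that lacked the PML protein and in wild-type MEFs. They were taken as a list of names: *Ezh1*, *Ezh2*, *Eed*, *Suz12* and *Jarid2* of Polycomb repressive complex 2 (PRC2), *Ring1*, *Rnf2* and *Bmi1* of Polycomb repressive complex 1 (PRC1), and the H3K27 demethylases *Kdm6a* and *Kdm6b*. All 10 were present among the 22593 genes shared by the 4 expression tables, and all 10 had an annotated gene body. The rule that lists them uses no measured value, but the members were chosen with earlier results of these data known.

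The knockout cells (KO) came from Pml-null mice and the wild-type cells (WT) from mice with intact Pml, both on the C57BL/6 background. Both were proliferating, untreated cultures at passage 10 to 15 that were grown to confluency. PML is the scaffold protein of PML nuclear bodies, and the study asked how its loss relates to heterochromatin and to the deposition of the histone variant H3.3. Chromatin immunoprecipitation (ChIP) was given for 6 targets, which were the repressive marks H3K27me3 and H3K9me3, H3.3 with a Flag tag, H3.3 with an HA tag, total H3, and PML, with 1 library per target and genotype. For both H3.3 targets the cells had been transfected with a plasmid of the tagged histone, so those libraries report on introduced H3.3. RNA came from cells that were not transfected, as 3 numbered replicates per genotype that the authors had merged into 1 table, here called the numbered pair, and as 1 unnumbered sample per genotype, here called the unnumbered pair. Every comparison of KO with WT therefore set a single value against a single value. No replicate error could be given and no test was run, and where a gene passed 2-fold this describes these libraries only. The labels do not say how many mice were behind the cultures.

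PRC2 places methyl groups on lysine 27 of histone H3. *Ezh2* and *Ezh1* encode its alternative catalytic subunits, *Eed* and *Suz12* the subunits without which the enzyme is not active, and *Jarid2* an accessory subunit that helps to recruit it. PRC1 places ubiquitin on histone H2A through the RING proteins encoded by *Rnf2* (RING1B) and *Ring1* (RING1A), and *Bmi1* (PCGF4) is a partner of both in its canonical form. *Kdm6a* (UTX) and *Kdm6b* (JMJD3) encode the enzymes that remove methyl groups from lysine 27. In cultured fibroblasts the system is best known for silencing developmental regulators and the *Cdkn2a* locus, whose products halt the cell cycle, and *Ezh2* is known as a gene of dividing cells that E2F factors regulate.

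Promoter sequences were available for 9 of the 10 genes. They came from RefSeq on GRCm38.p6, the assembly of mm10, and ran from 250 bases before to 50 bases after the annotated start. Both core PRC2 genes that held an E2F match are shown first, because the *Ezh2* level differed most between table pairs in KO among the members and *Suz12* is its obligate partner. In WT the *Jarid2* level differed most, at 0.215 times its unnumbered level, beside 3.18 times for *Ezh2*. The motif was searched on both strands as TTTGGCGC, TTTCCCGC, TTTGCCGC or TTTCGCGC, and the capitals mark the match. The *Ezh2* window lay at chr6:47594981-47595280 on the minus strand, and the *Suz12* window at chr11:79992856-79993155 on the plus strand.
Ezh2: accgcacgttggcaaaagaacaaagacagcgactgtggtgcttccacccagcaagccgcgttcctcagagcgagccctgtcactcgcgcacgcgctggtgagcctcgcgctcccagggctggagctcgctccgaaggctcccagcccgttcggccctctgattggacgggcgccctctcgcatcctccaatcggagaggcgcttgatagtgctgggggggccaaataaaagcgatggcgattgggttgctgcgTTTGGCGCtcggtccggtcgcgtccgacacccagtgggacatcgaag
Suz12: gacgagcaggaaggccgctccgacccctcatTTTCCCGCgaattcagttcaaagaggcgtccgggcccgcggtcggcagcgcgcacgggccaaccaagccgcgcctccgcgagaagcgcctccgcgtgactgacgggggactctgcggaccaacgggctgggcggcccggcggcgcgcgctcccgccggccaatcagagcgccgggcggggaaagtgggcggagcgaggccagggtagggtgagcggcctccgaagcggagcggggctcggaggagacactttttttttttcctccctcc
The motif was present once in each of these windows and was not found in the other 7, against 2.95% of 17274 promoters of protein-coding genes. The match is a description of letters and not of a bound site.

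The windows of *Bmi1*, *Ring1* and *Kdm6a* are shown because the chromatin regions described further on turn on these 3 genes. Capitals mark CpG dinucleotides. *Bmi1* lay at chr2:18676768-18677067 on the plus strand, *Ring1* at chr17:34024631-34024930 on the minus strand and *Kdm6a* at chrX:18162325-18162624 on the plus strand. The start used for *Kdm6a*, chrX:18162575, lies inside the gene body used for cover, which begins at 18160862.
Bmi1: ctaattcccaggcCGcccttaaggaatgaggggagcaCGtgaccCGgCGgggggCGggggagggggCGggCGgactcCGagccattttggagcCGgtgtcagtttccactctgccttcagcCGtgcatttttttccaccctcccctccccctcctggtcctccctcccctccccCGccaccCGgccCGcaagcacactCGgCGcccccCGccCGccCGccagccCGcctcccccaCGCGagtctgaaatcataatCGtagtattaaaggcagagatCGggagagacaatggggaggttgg
Ring1: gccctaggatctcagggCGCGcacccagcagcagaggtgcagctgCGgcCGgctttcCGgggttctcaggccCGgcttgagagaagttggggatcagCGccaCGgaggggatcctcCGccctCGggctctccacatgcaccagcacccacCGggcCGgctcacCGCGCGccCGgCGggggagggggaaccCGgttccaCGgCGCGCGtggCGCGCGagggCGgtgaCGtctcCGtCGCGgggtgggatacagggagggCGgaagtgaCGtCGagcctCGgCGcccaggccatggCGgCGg
Kdm6a: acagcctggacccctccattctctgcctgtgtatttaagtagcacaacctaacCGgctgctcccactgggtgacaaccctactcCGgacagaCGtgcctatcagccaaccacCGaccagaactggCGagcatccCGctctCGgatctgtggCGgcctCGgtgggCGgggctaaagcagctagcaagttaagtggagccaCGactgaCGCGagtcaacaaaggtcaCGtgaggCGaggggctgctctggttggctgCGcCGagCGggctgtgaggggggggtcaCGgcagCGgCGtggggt
*Bmi1* held 23 CpG, *Ring1* 37 and *Kdm6a* 21. Over the 9 matched genes the number ranged from 17 in *Eed* to 41 in *Suz12*, and all 9 were above the median of 14.0 CpG per window of all promoters.

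The libraries were checked before the members were read. *Pml* was at 10.2 FPKM (read fragments per length of transcript and sequencing yield) in KO and 15.0 in WT of the numbered pair, and at 4.22 in KO and 7.62 in WT of the unnumbered pair. The labels do not say which exons of *Pml* are missing, so this gene-level value does not check the genotype. The sum of FPKM was 409141 in KO and 948126 in WT of the numbered pair, and cytosolic ribosomal protein genes made up 18.3% of it in KO and 39.9% in WT. In the unnumbered pair the sums were 499817 in KO and 514594 in WT. The summed FPKM of 9 fibroblast markers was 4424 in KO and 8309 in WT of the numbered pair, and 8759 in KO and 10337 in WT of the unnumbered pair. These sums are as deposited and follow the scaling of the tables. Of the 8 that passed a filter of 1 FPKM in either genotype of the numbered pair, 1 was higher in KO and 7 were lower. All 9 passed in the unnumbered pair, where 3 were higher in KO and 6 were lower. Of 13 macrophage markers, 12 passed the filter in the unnumbered pair and all 12 were lower in KO. Only *Cd68* (1.32 FPKM in KO and 7.06 in WT) and *Lyz2* (8.30 in KO and 90.2 in WT) reached 1 FPKM in KO. The others among the 12 passed through WT alone, so they had to be lower in KO. The sum over the 13 was 13.1 FPKM in KO and 195 in WT of the unnumbered pair, and 4.02 in KO and 2.93 in WT of the numbered pair. In the numbered pair 5 of the 13 were listed at 0 in KO and 7 in WT, and in the unnumbered pair 2 in KO and 0 in WT. In these bulk samples, fewer cells of a type and less RNA per cell cannot be told apart.

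In the tables as deposited, no member differed by 2-fold in RNA. Differences are KO minus WT of log2(FPKM + 1), with genes kept where FPKM was at least 1 in either genotype, and all 10 members passed in both pairs. In the numbered pair 0 of 10 members were higher in KO by 2-fold or more, against 6.50% of 11055 genes, and 0 of 10 were lower by as much, against 15.7%. In the unnumbered pair no member, 0 of 10, was higher by 2-fold or more, against 1.74% of 11687 genes, and 0 of 10 were lower by as much, against 3.83%. The member differences had a median of 0.23 in the numbered pair, between -0.45 and 0.53, beside a median of 0.06 over all genes. In the unnumbered pair the median was 0.01, between -0.55 and 0.19, beside 0.01 over all genes.

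The zero point of the numbered pair depended on how the tables were scaled. With both tables scaled to the same sum over all genes, 8 of 10 members were at least 2-fold higher in KO, and the median of all genes moved to 1.10, with 6124 genes (55.4%) at least 2-fold higher and 563 lower, in place of 719 higher and 1737 lower as deposited. The member median was then 1.23, which is 0.12 above that of all genes. As deposited, 8 members were above 0 and 2, *Eed* and *Ring1*, below it, and under equal sums these 2 were also above 0. Directions in the numbered pair are therefore given as deposited.

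**Figure D1:**
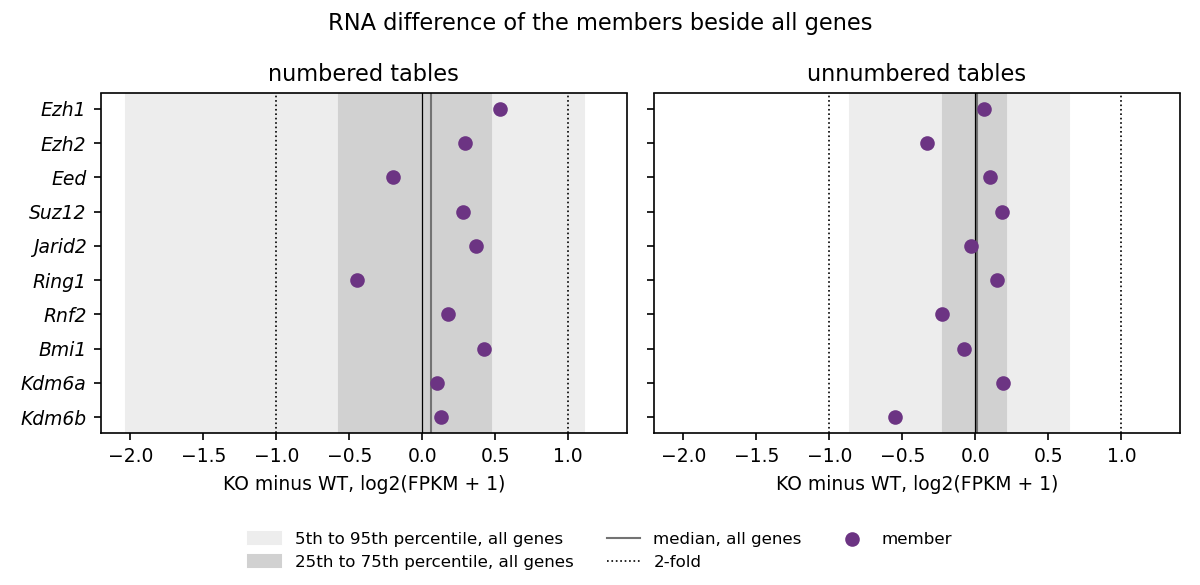
KO minus WT differences of log2(FPKM + 1), 1 point per member, in the numbered tables (left) and the unnumbered tables (right). Grey bands span the 5th to 95th and the 25th to 75th percentile of all genes that passed the filter, and dotted lines mark 2-fold. All 10 members lie inside the 2-fold lines in both pairs, and *Ezh1* at 0.53 and *Kdm6b* at -0.55 lie furthest out.

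Among the catalytic subunits of PRC2, *Ezh2* was at 38.3 FPKM in KO and 31.2 in WT of the numbered pair, a difference of 0.29. It was at 7.60 in KO and 9.82 in WT of the unnumbered pair, a difference of -0.33. The sign of the *Ezh2* difference was thus not shared by the pairs. *Ezh1*, the subunit associated with non-dividing cells, was at 2.47 FPKM in KO and 1.41 in WT of the numbered pair (0.53), and at 4.52 in KO and 4.28 in WT of the unnumbered pair (0.06). It was above WT in both pairs, at low levels. The ratio of *Ezh2* to *Ezh1* FPKM was lower in KO in both pairs, at 15.5 in KO and 22.1 in WT of the numbered pair, and at 1.68 in KO and 2.30 in WT of the unnumbered pair. A ratio of 2 genes within a table does not depend on how the table was scaled.

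Markers of proliferation, such as *Mki67* and *Top2a*, were read beside *Ezh2*. All 10 of 10 listed markers were lower in KO in the unnumbered pair, between -0.52 and -0.22, with a summed level of 206 FPKM in KO and 272 in WT. In the numbered pair 5 were above 0 and 5 below, with a median of 0.02 and sums of 885 FPKM in KO and 860 in WT. *Ezh2* and these sums were both lower in KO only in the unnumbered pair, and both were several-fold higher in the numbered than in the unnumbered tables of either genotype. *Ezh2* stood at 5.04 times its unnumbered level in KO and 3.18 times in WT, a level set across tables that were normalized separately. The part of cell division in these *Ezh2* values was not tested.

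The other PRC2 members are not catalytic. *Eed*, which binds the methylated histone tail, was at 18.1 FPKM in KO and 20.8 in WT of the numbered pair (-0.20), and at 20.7 in KO and 19.3 in WT of the unnumbered pair (0.10). *Suz12*, the structural subunit, was at 24.5 in KO and 20.1 in WT (0.28), and at 16.9 in KO and 14.8 in WT (0.18), in the same order of pairs. *Suz12* was thus higher in KO in both. *Jarid2* was the lowest PRC2 member, at 1.37 FPKM in KO and 0.834 in WT of the numbered pair (0.37), and at 3.77 in KO and 3.88 in WT of the unnumbered pair (-0.03). Its WT value in the numbered pair was below the filter of 1 FPKM, and it passed through the KO value.

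In PRC1, *Rnf2*, the main H2A ubiquitin ligase, was at 20.5 FPKM in KO and 18.0 in WT of the numbered pair (0.18), and at 23.5 in KO and 27.8 in WT of the unnumbered pair (-0.23). Its paralogue *Ring1* ran the other way in both pairs, at 4.42 in KO and 6.42 in WT (-0.45) of the numbered pair and at 11.3 in KO and 10.1 in WT (0.15) of the unnumbered pair. The ratio of *Rnf2* to *Ring1* was 4.64 in KO and 2.81 in WT of the numbered pair, and 2.07 in KO and 2.76 in WT of the unnumbered pair, so the pairs did not share its direction. *Bmi1* was at 36.0 FPKM in KO and 26.7 in WT of the numbered pair (0.42), and at 20.4 in KO and 21.6 in WT of the unnumbered pair (-0.08). *Bmi1* and *Rnf2* were among the higher members in every table, and *Ring1* was below both.

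Of the demethylases, *Kdm6a* was at 3.66 FPKM in KO and 3.36 in WT of the numbered pair (0.10), and at 8.79 in KO and 7.59 in WT of the unnumbered pair (0.19). *Kdm6b*, an inducible gene best known from activated macrophages, was at 4.34 in KO and 3.88 in WT of the numbered pair (0.13). It was at 1.79 in KO and 3.09 in WT of the unnumbered pair (-0.55), the lowest difference of any member. Macrophage markers were lower in KO in the same pair, with the sums and the limit of the filter given above. Their part in the *Kdm6b* value was not tested. The ratio of *Kdm6a* to *Kdm6b* was 0.842 in KO and 0.864 in WT of the numbered pair, against 4.90 in KO and 2.46 in WT of the unnumbered pair.

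**Figure D2:**
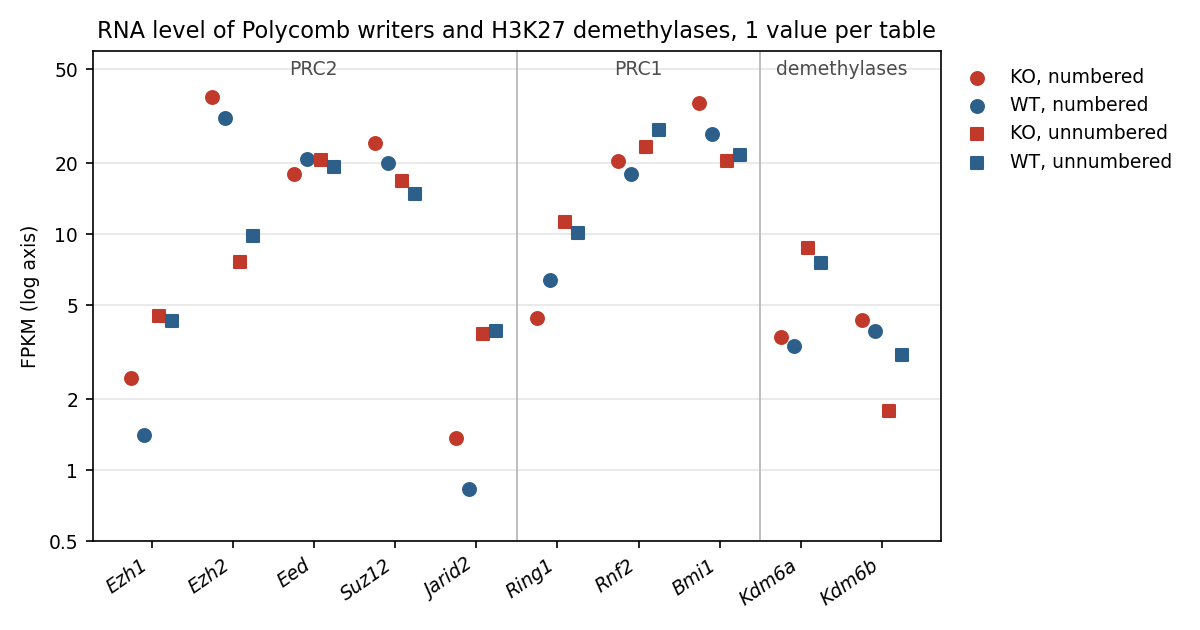
FPKM on a log axis for the 10 members, KO (red) left of WT (blue), with circles for the numbered tables (3 replicates merged by the authors) and squares for the unnumbered tables (1 sample each). *Ezh2* stands at 38.3 and 31.2 in the numbered KO and WT tables and at 7.60 and 9.82 in the unnumbered KO and WT tables, a wider gap between table pairs than between genotypes.

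*Kdm6a* lies on X and its counterpart *Uty* on Y, and reads from the pair could be split differently by the authors' counting, so their levels are uncertain. *Uty* was at 1.66 FPKM in KO and 0.00966 in WT of the numbered pair, and at 2.68 in KO and 4.96 in WT of the unnumbered pair. *Xist*, the RNA of the inactive X chromosome, was at 0.0517 FPKM in KO and 19.5 in WT of the numbered pair, and *Ddx3y*, a Y gene, at 7.67 in KO and 0.0384 in WT. In the unnumbered pair *Xist* was at 8.25 in KO and 5.89 in WT, and *Ddx3y* at 11.4 in KO and 21.7 in WT, so both kinds of RNA were present in both tables. Genotype and the sex of the cells cannot be told apart in the numbered pair. The sum of *Kdm6a* and *Uty* was 5.31 FPKM in KO and 3.37 in WT of the numbered pair, and 11.5 in KO and 12.6 in WT of the unnumbered pair.

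Ordered by level, *Ezh2* and *Bmi1* were the 2 highest members in both numbered tables and *Jarid2* the lowest. In both unnumbered tables *Rnf2* was the highest and *Kdm6b* the lowest, and *Ezh2* was at rank 7 of 10 in KO and rank 6 in WT. With 1 value per table, no order of neighbours can be set against a spread. Patterns over the 4 tables were compared by the Euclidean distance of log2(FPKM + 1) centred on each gene's mean, as a description over 4 tables only. *Suz12* and *Bmi1* were nearest to each other at 0.22, then *Jarid2* and *Kdm6a* at 0.31. *Ezh2* was furthest from any other member, at 1.30 from *Kdm6b*.

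Partners of the members were read from 5 lists of 47 genes, chosen by their place in PRC2, canonical or variant PRC1, the H2A deubiquitinase PR-DUB or the KDM6A-containing MLL3/4 complex. The RNA of *Cbx6* and *Bcor* was not analysed here, since they had no line of their own in the tables. Of 42 partners that passed the filter, the numbered pair had 1 that was higher in KO by 2-fold or more and 1 that was lower. Over all genes the shares were 6.50% higher and 15.7% lower. The unnumbered pair had 0 of 42 either way, against 1.74% higher and 3.83% lower over all genes. Their median difference was 0.14 in the numbered and 0.03 in the unnumbered pair. *Phf19*, a PRC2 partner that binds methylated H3K36, was the higher one, at 7.00 FPKM in KO and 0.945 in WT (2.04) of the numbered pair. It passed the filter there through KO alone, so it had to be higher in KO. In the unnumbered pair *Phf19* was at 1.41 in KO and 1.82 in WT (-0.23). *Pagr1a*, a subunit of the MLL3/4 complex, was the lower one, at 16.1 in KO and 82.6 in WT (-2.29), against 14.3 in KO and 13.9 in WT (0.04) of the unnumbered pair. Neither difference was present in both pairs.

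Genes that Polycomb commonly silences were read from a list of 30, mostly developmental transcription factors and the *Cdkn2* locus. Among the 13 that passed in the numbered tables, 4 were higher in KO by 2-fold or more and 3 were lower, and among the 12 that passed in the unnumbered tables, 0 were so either way. The shares over all genes at this size in the numbered pair were 6.50% higher and 15.7% lower, and 3 of 13 is near the second. In the unnumbered pair the shares over all genes were 1.74% higher and 3.83% lower. In the numbered pair *Wt1*, *Sox2*, *Lhx2* and *Irx3* passed the filter through KO alone, with WT under 1 FPKM. *Tbx5* passed it there through WT alone, so these genes had to differ in the direction they did. The 4 higher in that pair were *Wt1* (2.21), *Sox2* (1.97), *Tbx15* (1.63) and *Lhx2* (1.11). The 3 lower were *Bmp4* (-2.45), *En1* (-2.41) and *Tbx5* (-1.44), all as log2 differences. H3K27me3 regions covered at least 0.5 of the gene body of 23 of the 30 in KO and 24 in WT, against 32.4% of all genes in KO and 33.9% in WT. Cover was 0.5 or more higher in KO for *Irx3*, at 100% in KO and 0% in WT, and lower for *Sox2* and *Bmp4*, each at 0% in KO and 100% in WT. Over all genes 4.43% had that much more cover in KO and 5.44% that much less. *Sox2* was at 2.97 FPKM in KO and 0.0141 in WT of the numbered pair, but listed at 0 in KO and at 0.229 in WT of the unnumbered pair. *Wt1*, *Lhx2*, *En1* and *Tbx5* were each covered over 100% of the gene in both genotypes, and *Tbx15* over 0% in both.

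Cover of the members' own gene bodies was read next. A gene was counted as differing where the covered share of its RefSeq body differed by at least 0.5 between genotypes, and the background was 21631 protein-coding genes on chromosomes 1 to 19 and X. For H3K27me3, 0 of 10 members had more cover in KO, against 4.43% of all genes, and 1 had less, against 5.44%. For H3K9me3, 0 had more, against 13.1%, and 0 had less, against 7.78%. For H3.3-Flag, 1 had more, against 2.59%, and 1 had less, against 2.35%. For H3.3-HA, 1 had more, against 21.1%, and 0 had less, against 3.02%. A count of 1 among 10 is too small to be set apart from these shares. *Ring1* was the member with less H3K27me3, less H3.3-Flag and more H3.3-HA cover in KO, and *Kdm6a* the one with more H3.3-Flag cover.

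**Figure D3:**
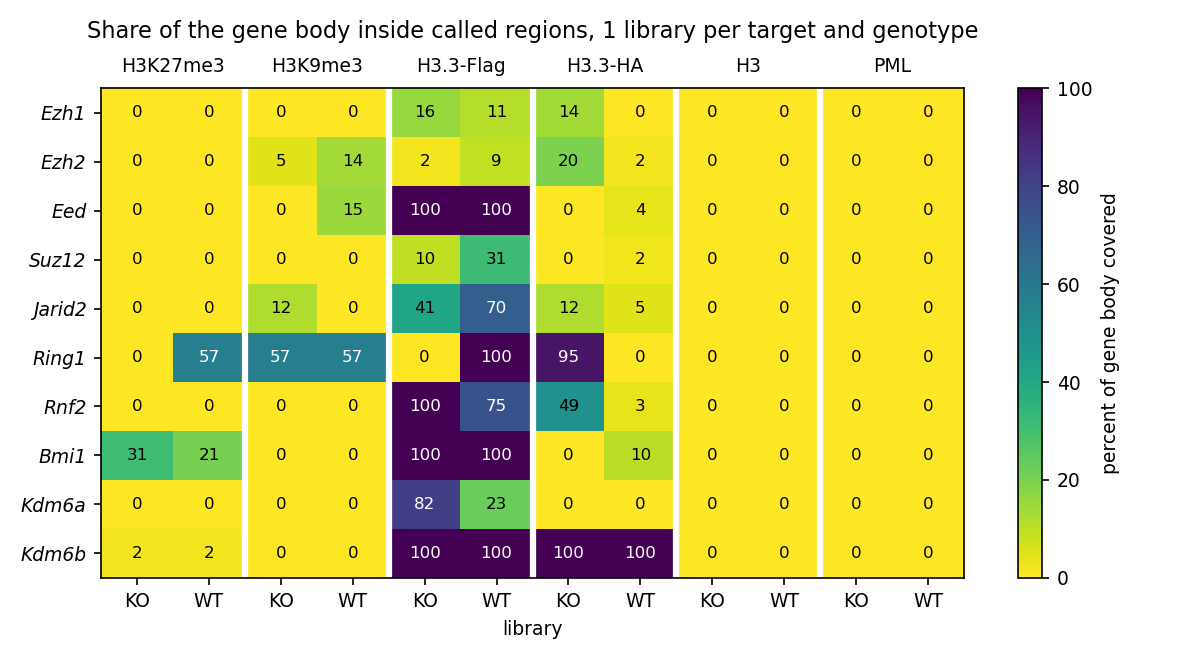
Percent of each member's gene body inside called regions, for 6 ChIP targets with KO left of WT (1 library each). H3.3-Flag regions reach 9 of 10 members in KO and all 10 in WT, H3K27me3 regions 2 members in KO and 3 in WT, and H3 and PML regions none in either genotype.

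H3K27me3 regions touched 2 of the 10 members in KO and 3 in WT, where 41.9% of all genes were touched in KO and 44.8% in WT. *Bmi1* was covered over 31.0% of its body in KO and 20.6% in WT. Both came from a short region over the start, 3 kb long with the authors' signal value at 46.0 in KO and 2 kb long at 26.0 in WT, which began in both genotypes inside the promoter window printed above. *Bmi1* RNA was among the highest of the members in all 4 tables. *Kdm6b* was covered over 1.68% in both genotypes, at 1 edge of its body, by a region of 133 kb in KO and 18 kb in WT that began at the same base and ran away from the gene. *Ezh1* had no cover, but a region began 0.537 kb beyond its start in both genotypes, 23 kb long in KO and 24 kb in WT.

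*Ring1*, a gene of 3.89 kb at chr17:34020792-34024680, was the member whose cover differed most. H3K27me3 covered 0% of it in KO and 56.8% in WT. The regions began at the same base outside the gene, and the WT region, 54 kb long, ended inside *Ring1* at 34023000, while the KO region, 46 kb long, stopped short of it at 34015000. The difference thus came from the end of a long region that both genotypes shared. H3K9me3 regions, 21 kb long in KO and 18 kb in WT, ended at 34023000 in both genotypes and covered 56.8% of *Ring1* in each. H3.3-Flag covered 0% in KO and 100% in WT, where an 18 kb region held the gene, and in KO a 9 kb region lay beyond the start and ended at the same base as the WT region. H3.3-HA covered 94.6% in KO, by a region of 115 kb at a signal of 4.54, and 0% in WT, where a 7 kb region at 14.7 lay beyond the start. *Ring1* RNA was lower in KO in the numbered pair (-0.45) and higher in the unnumbered pair (0.15), as given above.

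H3.3-Flag regions met nearly all members. They touched 9 of 10 in KO and all 10 in WT, where 50.7% of all genes were touched in KO and 55.9% in WT, and within 2 kb of the start they touched all 9 members with a promoter entry in both genotypes, where 39.0% of starts were touched in KO and 45.1% in WT. The median cover of the members was 61.1% in KO and 72.4% in WT, against 0.669% in KO and 3.78% in WT over all genes. *Eed*, *Bmi1* and *Kdm6b* were covered over 100% in both genotypes. *Rnf2* was covered over 100% in KO and 74.7% in WT, *Jarid2* over 40.8% in KO and 70.1% in WT, and *Suz12* over 9.50% in KO and 31.4% in WT. *Ezh1* had 15.5% in KO and 11.3% in WT, and *Ezh2* 1.95% in KO and 9.23% in WT. All of these are genes with RNA in every table, and no comparison at matched RNA level was made.

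The H3.3-Flag lists differed in the weakest region they held. The lowest signal was 0 in KO and 12.1 in WT, and the median signal was 15.9 in KO and 36.0 in WT. A minimum signal of 12 was then set, chosen after the data had been seen. With it 0 members had more cover in KO, against 0.633% of all genes, and 5 had less, against 11.1%. *Kdm6b* was the member with full cover in both genotypes. Since the WT list held no region below 12, this minimum could only remove KO regions. Members also had more cover to lose than all genes, by the medians above. These counts therefore do not show a loss in KO. *Kdm6a* had 81.5% cover in KO and 22.7% in WT with all regions, but 0% in KO and 22.7% in WT with this minimum, so that its direction turned. Its KO cover came from 1 region of 97 kb at a signal of 5.94, and its WT cover from 3 regions of 7, 12 and 8 kb at 27.7, 15.9 and 21.8. Both genotypes had a region that began at the same base, chrX:18161001, close to where the gene body of *Kdm6a* begins.

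H3.3-HA regions were weaker in KO, with a median signal of 1.48 in KO and 16.0 in WT. They touched 6 members in KO and 7 in WT, where 31.3% of all genes were touched in KO and 28.8% in WT. *Kdm6b* was covered over 100% in both genotypes. *Rnf2* was covered over 49.4% in KO and 3.14% in WT, and *Ezh2* over 19.6% in KO and 1.95% in WT. The KO regions were 29 kb at a signal of 2.00 in *Rnf2* and 30 kb at 1.17 in *Ezh2*. In WT each had a 2 kb region over the start at a higher signal. At minimum signals of 1 and 3, the share of all genes with more HA cover in KO was 9.74% and 2.15%, against 21.1% without. The share with less was 4.73% and 6.68%, against 3.02% without. The cover of *Rnf2* and *Ezh2* therefore does not show more H3.3-HA in KO. Within 2 kb of the start, HA regions met 1 of 9 members in KO (*Ring1*) and 5 of 9 in WT, where 4662 of 17274 starts were met in KO and 3859 in WT. The *Bmi1* start window was covered over 0% in KO and 74.6% in WT. H3K9me3 regions touched 3 members in each genotype, with cover of *Ezh2* over 4.62% in KO and 13.8% in WT, *Eed* over 0% in KO and 15.2% in WT, *Jarid2* over 11.9% in KO and 0% in WT, and *Ring1* as given. These 3 of 10 were near the share of all genes touched, 37.3% in KO and 40.3% in WT. No member was touched by an H3 region, where 36.7% of all genes were in KO and 24.9% in WT, or by a PML region, where 1.41% were in KO and 12.8% in WT. The nearest WT PML region lay between 0.886 and 7.38 Mb from each, with a median of 2.70 Mb.

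**Figure D4:**
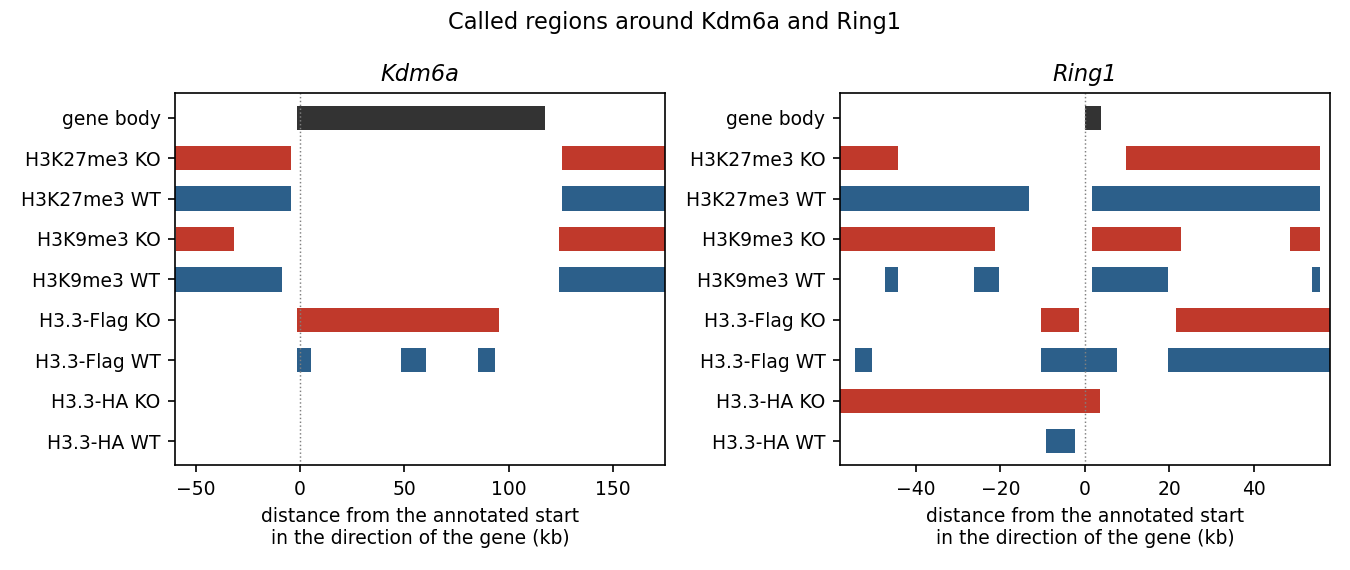
Called regions of 4 targets around *Kdm6a* (left) and *Ring1* (right), KO (red) above WT (blue), with the gene body in black and the distance in kb from the annotated start in the direction of the gene. H3K27me3 leaves a gap of 130 kb with the same borders in both genotypes around *Kdm6a*, and at *Ring1* the WT H3K27me3 region ends inside the gene and the KO region outside it.

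*Kdm6a* stood in a gap in H3K27me3 on X. Regions of the mark covered at least 0.5 of the body of 958 of 966 protein-coding X genes in KO (99.2%) and 860 in WT (89.0%), against 29.2% in KO and 31.3% in WT on the autosomes. They spanned 169 Mb of X in 26 regions in KO and 133 Mb in 876 regions in WT. Only 6 X genes in KO and 57 in WT were not touched at all, and 4 were untouched in both: *Ddx3x*, *Kdm6a*, *Pbdc1* and *Kdm5c*. The *Kdm6a* gap was the interval chrX:18158001-18288000, 130 kb, with the same 2 borders in KO and WT. It held the whole gene body, chrX:18160862-18279936. The flanking regions were 4861 and 3436 kb long in KO and 1493 and 406 kb in WT, with signal values of 8.03 and 7.44 in KO and 9.20 and 13.1 in WT. H3K9me3 regions also stopped on both sides of the gene in both genotypes, and resumed at the same base after it.

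Genes beside *Kdm6a* in this group were picked after their values had been seen, so they are a description. *Kdm5c*, an H3K4 demethylase, lay in a gap of 48 kb in both genotypes and *Ddx3x*, an RNA helicase, in one of 17 kb in both. *Eif2s3x*, a translation factor subunit, was not covered in KO and covered over 9.57% in WT. *Magee1* was also not covered in KO and was covered over 26.8% in WT. *Kdm6a*, *Kdm5c*, *Ddx3x* and *Eif2s3x* are known in mouse as genes that remain active on the inactive X chromosome. H3.3-Flag covered 100% of *Ddx3x* and *Eif2s3x* and 76.0% of *Kdm5c* in both genotypes, and 0% of *Pbdc1* in KO and 3.40% in WT. The labels do not give the sex of the cells used for ChIP.

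**Figure D5:**
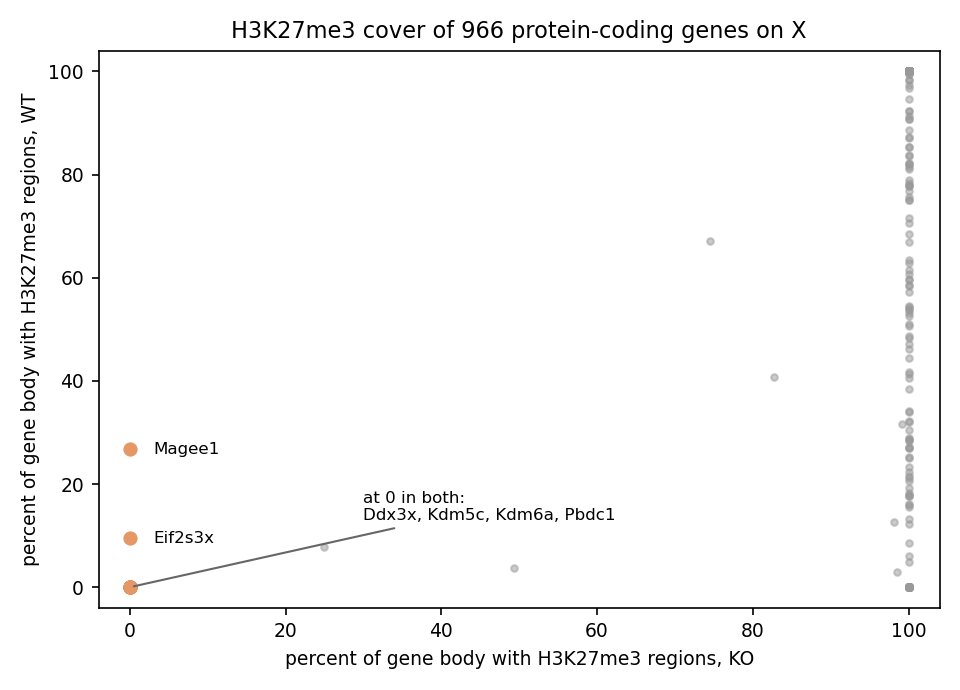
H3K27me3 cover of the gene body for 966 protein-coding X genes, in KO (horizontal axis, percent) and WT (vertical axis, percent), 1 point per gene. Most points lie at 100% in KO, and *Kdm6a* is 1 of 4 genes at 0 in both genotypes (orange points were untouched in KO).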

How the data were processed

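The authors deposited lists of called ChIP regions and 4 tables of FPKM values, with reads aligned to mm10. The submitters' processing notes name Cuffdiff 2.2.1, Cufflinks 2.2.1, TopHat2 2.0.8b and Bowtie 1.0.0, while no source used here names the region caller. For H3.3, H3K9me3 and H3K27me3 each deposited region carried a signal and a score made by the authors, and for H3 and PML a score alone. Multiplied by a region's 1 kb bins, the deposited signal gave whole numbers on chromosomes 1 to 9 and on X, but for few regions on chromosomes 10 to 19, which hold *Ezh1*, *Suz12*, *Kdm6b*, *Jarid2* and *Ring1*, so its meaning may differ between these sets. The files used here give no read totals, so depth was unknown and no detection limit was computed.

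Analyses ran in Python 3.11.15 (pandas 2.3.3, numpy 2.4.6, matplotlib 3.10.9). The deposited FPKM tables name several genes on 267 or 271 lines, and these lines and repeated names were left out. Of 22593 genes in all 4 tables, 99.6% matched RefSeq symbols or synonyms on GRCm38.p6. The RNA difference of a gene was its log2(FPKM + 1) in KO minus that in WT, for genes with FPKM of at least 1 in either genotype. This scale understates the difference of low genes. Cover was the share of a gene body inside called regions, and a difference of at least 0.5 was counted. Both computations were tested on simulated data. *Ezh2* and *Kdm6b* overlap long non-coding RNAs, and the counting was not stated to use strand, so reads of overlapping genes cannot be told apart. All members were named with their values, and genes of the pathway lists, but not of the marker lists, where they differed by at least 2-fold in either pair or by 0.5 in H3K27me3 cover. Members and lists were chosen with earlier results of these data known.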

Additional observations from a re-analysis of the deposited data

How the results depend on the processing

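In the numbered pair the member median of 0.23 was 1.23 with tables scaled to the same sum of all genes and 0.84 with the same sum without ribosomal protein genes, with 8 and 4 members at least 2-fold higher in KO in place of 0, against 55.4% and 32.8% of all genes. The median of all genes moved with it, to 1.10 and 0.72, and the members stood 0.12 above it under both. The member median stayed within 0.17 to 0.24 under the other settings of that pair, and within 0.00 to 0.10 in the unnumbered pair. In a window of 2 kb each way from the start, 0 of 9 members had less H3K27me3 (5.74% of all starts), 0 had more H3.3-Flag (2.69%) and 1, *Bmi1*, had less H3.3-HA cover in KO (8.67%), all near the shares of all starts. With 10 kb added on both sides of the gene, 0 had less H3K27me3 (4.15% of all genes), 0 had less H3.3-Flag (0.809%) and 0 had more H3.3-HA cover (21.4%), where *Ring1* itself still differed by -33.5, -37.7 and 28.0 percentage points. With a difference of 0.25 counted, 2 members had more H3.3-Flag cover (*Rnf2* and *Kdm6a*; 5.69% of all genes), 2 had less (*Jarid2* and *Ring1*; 4.84%) and 2 had more H3.3-HA cover (*Ring1* and *Rnf2*; 23.1%, so at that share). On H3.3-Flag regions with a signal of at least 12, a setting chosen after seeing the data, 0 had more (0.633% of all genes) and 5 had less cover (11.1%), and *Kdm6a* turned from more cover in KO to -22.7 percentage points. The KO list holds regions below 12 and the WT list none, so this setting could only lower the KO cover. For the other settings the cause was not tested.

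Of 86 alternatives for the counts and medians, 71 stayed within the limits set for them and 15 moved, and of 158 for single genes, 126 stayed, 31 moved and 1 turned. A minimum of 5 FPKM left out *Ezh1*, *Jarid2*, *Kdm6a* and *Kdm6b* in the numbered pair and *Ezh1*, *Jarid2* and *Kdm6b* in the unnumbered pair. No paired analysis was possible because the numbered replicates were merged by the authors into 1 table per genotype, with no column per replicate in the files used here, and replicates could not be left out in turn for the same reason.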

Other observations

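The *Cdkn2a* and *Cdkn2b* genes, singled out after their values were seen, encode the cell-cycle inhibitors for which Polycomb silencing in fibroblasts is best known. *Cdkn2a* was at 66.1 FPKM in KO and 42.8 in WT of the numbered pair (0.61), and at 91.6 in KO and 71.2 in WT of the unnumbered pair (0.36). *Cdkn2b* was at 15.8 in KO and 8.21 in WT (0.87) of the numbered pair, and at 93.0 in KO and 56.9 in WT (0.70) of the unnumbered pair. Both were higher in KO in both pairs, and neither reached 2-fold in the tables as deposited. The size in the numbered pair depends on the scaling, as described above. H3K27me3 covered 0% of *Cdkn2a* in KO and 32.4% in WT, and 0% of *Cdkn2b* in both. H3.3-Flag covered 0% of *Cdkn2a* in KO and 62.6% in WT, and 0% of *Cdkn2b* in KO and 100% in WT. These were the 2 of 30 listed targets with at least 0.5 less H3.3-Flag cover in KO, and 0 had as much more. Over all genes 2.35% had that much less and 2.59% that much more.

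Over the 30 listed Polycomb targets, H3K9me3 regions covered at least 0.5 of the body of 19 in KO and 12 in WT, with 9 genes that had at least 0.5 more cover in KO and 2 that had at least 0.5 less. Over all genes, 25.3% were covered to 0.5 in KO and 19.5% in WT, with 13.1% that had more cover in KO and 7.78% that had less. The H3K9me3 lists were unlike, with 10835 regions at a median signal of 8.52 in KO and 20732 at 3.83 in WT. Some of the 9 genes lie on chromosome 5, where some partners of the members also had at least 0.5 more H3K9me3 cover in KO. The part of these differences in the 9 of 30 was not tested. H3K27me3 cover of the 30 was at least 0.5 more in KO for 1 and less for 2, near the shares of all genes, 4.43% and 5.44%. Among the 47 partners of the members, H3K27me3 covered at least 0.5 of 5 in KO and 7 in WT, against 32.4% of all genes in KO and 33.9% in WT. Of these, 4 of the 5 in KO and 4 of the 7 in WT lie on X, where nearly all genes were covered. *Cbx7*, a PRC1 subunit that binds the mark, was the 1 partner with at least 0.5 less cover in KO, and its RNA was under 1 FPKM in all 4 tables.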
